A study of Mus musculus with 23 samples.

Results

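The 9 genes described here encode proteins that seal and hold together the intestinal epithelium: the claudins Cldn2, Cldn3, Cldn4, Cldn7 and Cldn15, the tight junction membrane proteins Ocln and F11r, the scaffold Tjp1 and the adherens junction cadherin Cdh1. They were taken as every probe that carried one of these gene names in the scanner files, which gave 12 probes among the 37161 probes of the deposited value table, or 9 of 17574 named genes. Their mRNA was measured with microarrays in the ileum of male mice, 1 array per mouse, in 4 groups. WT mice were C57BL/6J animals purchased at 6 weeks of age. Pxr-/- mice came from a line backcrossed on the same background and bred in house for 10 years, so genotype and source of the animals cannot be told apart. Mice were acclimatized for 2 weeks before treatment. The age of the Pxr-/- mice was not stated, so age is not known to match between genotypes. Treated mice were given PCN (pregnenolone carbonitrile, a ligand that activates rodent PXR) by intraperitoneal route, at 100 mg/kg per dose on 4 consecutive days. The vehicle was corn oil, and it was the only injection of the Cont groups. All mice had free access to food and were killed at zeitgeber time 6, 6 h after the last injection. The groups held 6 WT Cont, 5 WT PCN, 6 Pxr-/- Cont and 6 Pxr-/- PCN mice, and p-values measure the spread between mice. The tissue was the ileum as a whole, so for every difference given here a change in the share of cell types and a change in RNA per cell cannot be told apart.

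Tight junctions are belts of membrane strands at the top of the lateral membrane of epithelial cells, and they decide what passes between the cells. Claudins build the strands. Some close the gap to ions, and others, among them Cldn2 and Cldn15, form pores for cations and water. Occludin and the junctional adhesion molecules lie beside the claudins, ZO proteins tie all of them to actin, and E-cadherin in the adherens junction just below keeps neighbouring cells attached. PXR is a nuclear receptor of liver and intestine that binds DNA together with RXR and is best known for inducing drug-metabolizing enzymes.

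The labels were set against genes known to respond. Cyp3a11, a classic PXR target, had a mean log2 value of 8.39 ± 0.87 in WT Cont and 11.89 ± 0.74 in WT PCN mice. In Pxr-/- mice it was 6.57 ± 0.18 without and 6.52 ± 0.34 with PCN (SD). The probe of Nr1i2, the gene of PXR, gave 12.14 ± 0.16, 12.17 ± 0.30, 11.73 ± 0.36 and 11.71 ± 0.18 in WT Cont, WT PCN, Pxr-/- Cont and Pxr-/- PCN mice, and whether it lies in the deleted part is not known, so it does not check the deletion. Of 5 ileal genes (Fabp6, Slc10a2, Fgf15, Slc51a and Slc51b) and 15 epithelial genes, all were above background on all 23 arrays. All columns of the deposited table shared 1 median, 8.02, and no library was a copy of another.

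Every probe of the 9 genes was called well above background by the scanner software on 23 of 23 arrays, and none was saturated. The genome positions are those of the array files, on the mm9 build, and were not set against a gene model of that build. Cldn3 (chr5:135463284-135463342) and Cldn4 (chr5:135422135-135422194, minus strand) are neighbours. Cldn15 was read at chr5:137451465-137451524, Ocln at chr13:101268114-101268173 on the minus strand, F11r at chr1:173393848-173393907 and Cdh1 at chr8:109193812-109193871. Cldn2 had probes at chrX:136345244-136345303 and chrX:136343432-136343491, Cldn7 at chr11:69781255-69781314 and chr11:69778772-69778831, and Tjp1 at chr7:72441126-72441185 and chr7:72441703-72441762 on the minus strand. Of a gene with a pair of probes, the brighter one, named first here, stands for the gene. The sequences of the Cldn4 probe, the single reading of the one member called in any contrast, and of the dimmer Cldn2 probe, which gave PCN differences in Pxr-/- mice close to those of the brighter one, are shown 5′ to 3′ as printed on the array.
Cldn4 probe: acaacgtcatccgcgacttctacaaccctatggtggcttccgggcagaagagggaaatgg
Cldn2 dimmer probe: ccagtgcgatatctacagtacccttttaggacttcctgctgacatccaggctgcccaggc

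PXR with RXR binds pairs of short half-sites of the type AGGTCA or AGTTCA. The 250 bases before the annotated start of the neighbours Cldn4 and Cldn3 are given, because Cldn4 was called lower after PCN and Cldn3 was not, with the promoter of Cldn2 as that of a pore-forming claudin (RefSeq sequences, GRCm38.p6, strand of the gene). Capitals mark AGGTCA or AGTTCA on either strand.
Cldn4, chr5:134946935-134947184, minus strand: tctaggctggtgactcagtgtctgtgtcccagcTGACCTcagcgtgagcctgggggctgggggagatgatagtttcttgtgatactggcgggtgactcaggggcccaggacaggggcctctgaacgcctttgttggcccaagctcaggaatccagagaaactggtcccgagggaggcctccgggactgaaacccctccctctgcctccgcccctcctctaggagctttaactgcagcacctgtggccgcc
Cldn3, chr5:134985964-134986213, plus strand: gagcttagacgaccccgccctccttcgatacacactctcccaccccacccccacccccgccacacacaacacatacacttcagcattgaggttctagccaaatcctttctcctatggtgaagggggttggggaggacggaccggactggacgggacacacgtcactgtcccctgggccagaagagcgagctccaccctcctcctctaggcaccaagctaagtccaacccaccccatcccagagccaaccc
Cldn2, chrX:139800558-139800807, plus strand: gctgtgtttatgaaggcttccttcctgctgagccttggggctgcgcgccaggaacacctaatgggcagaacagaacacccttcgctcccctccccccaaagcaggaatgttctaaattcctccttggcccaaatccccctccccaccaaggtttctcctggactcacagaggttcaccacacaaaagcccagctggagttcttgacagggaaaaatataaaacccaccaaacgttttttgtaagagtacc
The Cldn4 window held AGGTCA once, on the opposite strand, and the windows of Cldn3 and Cldn2 held neither word. Entries were matched for 8 of the 9 genes (not Cdh1), with 10 starts in all, and 4 of the 10 windows held either word: that of Cldn4, both of Cldn7 and 1 of Ocln. Of all 32851 promoter windows of this length, 14.0% held AGGTCA, 11.8% held AGTTCA and 24.2% held either. A match of these letters is a description of the window and was not tested as a binding site. The Cldn4 difference with PCN was -1.03 in Pxr-/- mice and -0.55 in WT mice, neither called. Its relation to the match was not tested.

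Cldn4, a claudin that tightens the barrier, was the one member called, and it had the widest spread between mice of a group among the 9 genes. In the 6 WT Cont mice its log2 value ran from 8.24 to 9.93 with a median of 9.23. In the 5 WT PCN mice it was 8.08, 8.14, 8.57, 8.84 and 9.65. The Pxr-/- Cont mice ran from 8.07 to 10.15 with a median of 8.92, and the Pxr-/- PCN mice from 7.44 to 8.54 with a median of 7.96. All 6 Pxr-/- PCN mice and 4 of the 5 WT PCN mice lay below the mean of their own controls, but the ranges of treated and control mice overlapped in both genotypes. Averaged over both genotypes, Cldn4 fell with PCN by 0.79 on the log2 scale (SE 0.227, 95% interval -1.26 to -0.32, limma adjusted p = 0.0322), which is 1.73-fold lower. No other member was called in any of the 6 contrasts.

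**Figure D1:**
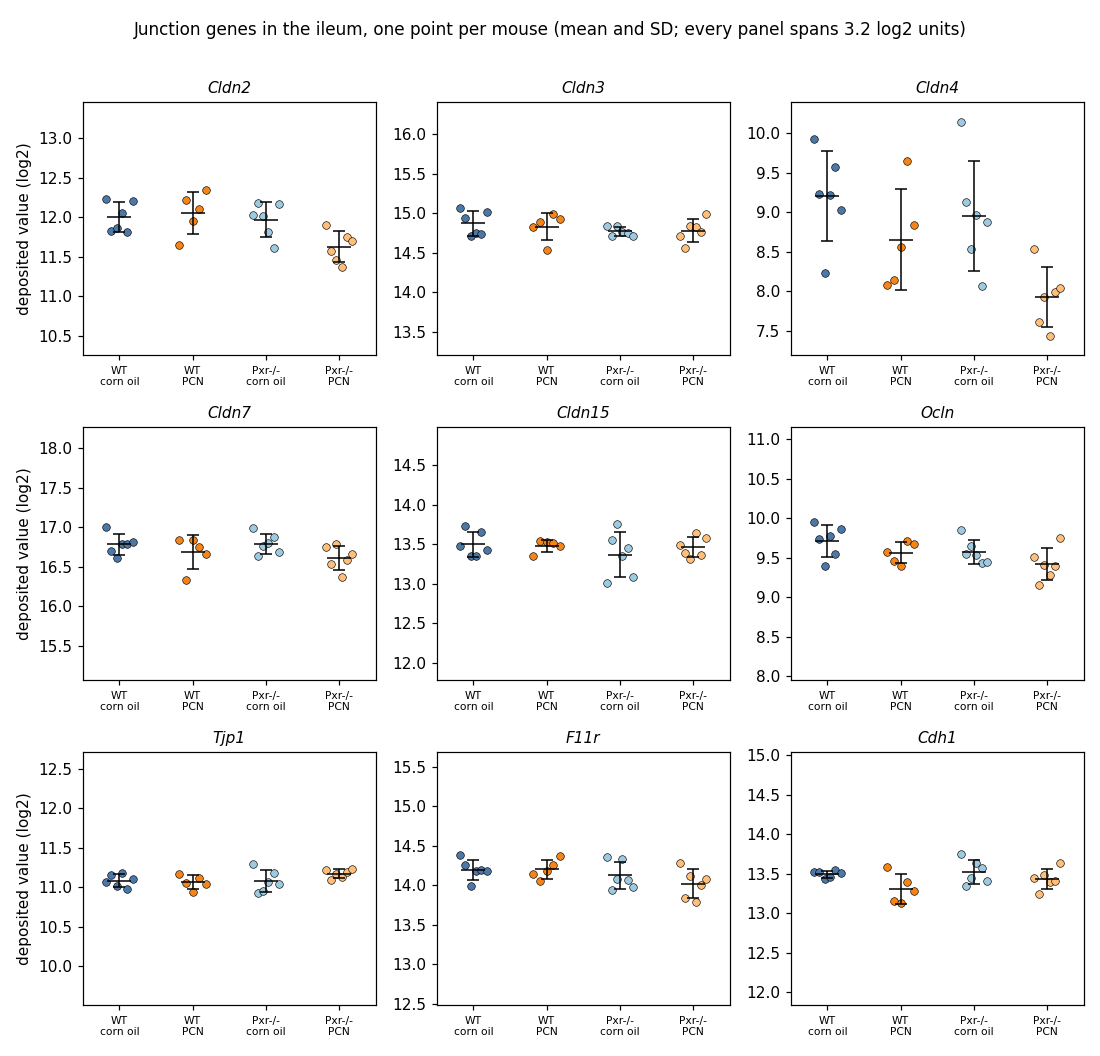
Deposited log2 value of the brightest probe of each of the 9 genes (y axis) in the 4 groups (x axis), 1 point per mouse with the group mean and SD, every panel spanning the same log2 range. Cldn4 is the most scattered of the 9 genes, and its 6 Pxr-/- PCN mice lie between 7.44 and 8.54.

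Within genotypes the Cldn4 difference did not pass. It was -1.03 in Pxr-/- mice (SE 0.314, 95% interval -1.68 to -0.38, adjusted p = 0.0671), a 2.04-fold lower mean, and -0.55 in WT mice (SE 0.33, -1.24 to 0.13, adjusted p = 0.548). The test of the difference between the genotypes, the interaction, gave 0.48 (-0.47 to 1.42, adjusted p = 1.0), so the response was not shown to be larger in either genotype. From the highest to the lowest group mean the order was WT Cont (9.21 ± 0.57), Pxr-/- Cont (8.96 ± 0.69), WT PCN (8.65 ± 0.64) and Pxr-/- PCN (7.93 ± 0.38, SD). The first 3 means lay within the spread between mice of each other. The genotype differences were -0.25 without PCN (-0.90 to 0.40) and -0.73 with PCN (-1.41 to -0.04, adjusted p = 0.660).

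The Cldn4 call depended on which mice entered the fit. The arrays were washed in 2 batches that each held every group. Batch 1 alone gave a mean difference of -1.13 (95% interval -1.87 to -0.40, adjusted p = 0.275) and batch 2 alone -0.54 (-0.99 to -0.08, adjusted p = 0.192). In WT mice the means of Cont and PCN were 9.13 and 8.11 in batch 1 but 9.28 and 9.02 in batch 2. In Pxr-/- mice they were 9.27 and 8.03 in batch 1, and 8.64 and 7.82 in batch 2. The difference therefore ran the same way in both batches and genotypes. Whether its size differed between batches was not tested, and the WT PCN mean of batch 1 rested on 2 mice. The 3 mice on the first slide (Pxr-/- Cont replicate 2 at 10.15, WT Cont replicate 6 at 9.93 and Pxr-/- PCN replicate 4 at 8.54) were each the highest of their group. With slide as a block, the Pxr-/- difference passed (-1.03, -1.43 to -0.62, adjusted p = 0.0106). It also passed when Pxr-/- PCN replicate 4 (-1.16, adjusted p = 0.0462) or Pxr-/- Cont replicate 3 (-1.22, adjusted p = 0.0380) was left out. Leaving out WT Cont replicate 1 or WT PCN replicate 1, which enter only the shared spread, gave adjusted p of 0.0495 and 0.0498. The averaged difference missed the threshold without any of 7 mice: WT Cont replicate 5 (adjusted p = 0.0599) or 6 (0.0546), WT PCN replicate 2 (0.0528), 3 (0.0616) or 4 (0.0694), Pxr-/- Cont replicate 5 (0.0508) and Pxr-/- PCN replicate 5 (0.0551), with differences of -0.78 to -0.71. It was called in 28 of 38 alternatives, and it was negative in each of them.

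**Figure D2:**
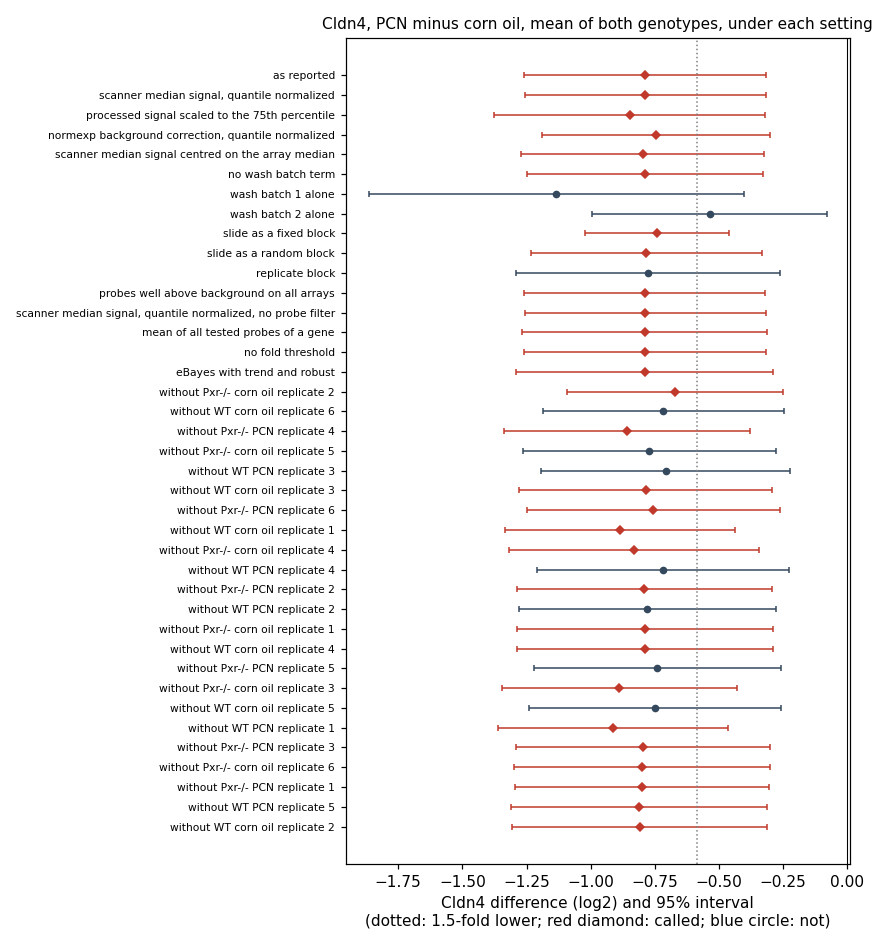
Difference in Cldn4 between PCN and corn oil averaged over both genotypes (x axis, log2, with its 95% interval) as reported and under each of 38 alternatives (y axis), with called settings as red diamonds and others as blue circles. All differences are below 0, from -1.13 in wash batch 1 to -0.54 in wash batch 2.

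Summed levels of cell type markers are given as well, and no difference between sums was tested. Among epithelial genes, 13 of 15 had a lower mean with PCN in WT mice and 13 of 15 in Pxr-/- mice. Their median differences were -0.15 and -0.08. Over all genes, 55.8% were lower with PCN in WT and 49.8% in Pxr-/- mice. The summed level of the 15 genes (log2 of the sum) ran from 20.31 to 20.57 in WT Cont, 20.21 to 20.49 in WT PCN, 20.47 to 20.71 in Pxr-/- Cont and 20.33 to 20.42 in Pxr-/- PCN mice. Of the 8 smooth muscle genes, all above background on every array, 6 were higher with PCN in WT and 8 in Pxr-/- mice, and their sum ran from 17.49 to 17.70, 17.58 to 18.13, 17.43 to 18.04 and 17.80 to 18.53 in the same order of groups. Of the 7 tested genes of follicle-associated epithelium and M cells, 6 were higher in each genotype, and their sum ran from 13.04 to 13.29, 13.44 to 14.36, 13.04 to 13.31 and 13.23 to 13.52. Of the 8 genes of B cells and Peyer patches, 8 were higher with PCN in WT (median 1.28) and 7 in Pxr-/- mice (median 0.45). Their sum ran from 10.80 to 11.25 in WT Cont and 11.13 to 13.84 in WT PCN mice. It ran from 10.73 to 11.25 in Pxr-/- Cont and 10.70 to 12.32 in Pxr-/- PCN mice. The upper end in WT PCN mice came from replicates 3 (13.84) and 2 (13.72), and the WT PCN median was 11.35. The follicle-associated sum of every WT PCN mouse lay above that of every WT Cont mouse. The epithelial sum of every Pxr-/- PCN mouse lay below that of every Pxr-/- Cont mouse. Of single genes, 3.65% did not overlap for PCN in WT and 3.69% in Pxr-/- mice. The other sums given so far overlapped between PCN and Cont mice of a genotype. Of 7 fibroblast genes, 6 were higher with PCN in WT (median 0.33) and 7 in Pxr-/- mice (median 0.61), and their sum ran from 15.44 to 15.79, 15.32 to 16.50, 15.07 to 15.90 and 15.76 to 16.59 in the order used above. The 8 mitosis genes were all lower with PCN in both genotypes (medians -0.21 and -0.38), with sums from 13.88 to 14.38, 13.64 to 14.13, 13.90 to 14.69 and 13.74 to 14.24. Of 8 neutrophil genes 6 were higher in each genotype, and of 8 macrophage genes 7 in WT and 8 in Pxr-/- mice, with sums that overlapped between PCN and Cont mice (15.17 to 15.70 and 15.15 to 16.79 over all mice). Of 6 mesothelium genes, 5 were higher with PCN in WT and 4 in Pxr-/- mice. Of the 5 ileal genes it was 2 and 1, and of 4 tested colon genes 2 and 3. Of 3 tested pancreatic acinar genes it was 0 and 2. By limma, 2 of 8 neutrophil genes were called up with PCN in WT and 2 in Pxr-/- mice. For 7 fibroblast genes it was 1 and 3, and for 6 mesothelium genes 1 and 1. It was 0 and 2 of 8 smooth muscle, 0 and 1 of 8 macrophage and 1 and 0 of 7 follicle-associated genes. In Pxr-/- mice 1 of 15 epithelial genes was called down. The other lists given here held no call in either genotype. Over all genes, 1.05% in WT and 1.49% in Pxr-/- mice were called. The part of these lists in the junction gene values was not tested.

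Cldn3, a sealing claudin abundant along the gut, showed no difference that passed in any contrast. Its log2 value ran from 14.71 to 15.07 (median 14.84) in WT Cont mice and was 14.53 to 14.99 (median 14.89) in WT PCN mice. It ran from 14.71 to 14.84 (median 14.75) in Pxr-/- Cont and from 14.56 to 14.99 (median 14.79) in Pxr-/- PCN mice. All 4 groups overlapped. The PCN difference was -0.04 in WT (95% interval -0.22 to 0.14) and 0.01 in Pxr-/- mice (-0.16 to 0.19), so a change of more than 1.5-fold lay outside both intervals for this gene, unlike for its neighbour Cldn4.

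Cldn7, which lies along the lateral membrane of gut epithelium as well as in tight junctions, was in the same position. Its brighter probe gave 16.78 ± 0.13 in WT Cont, 16.68 ± 0.21 in WT PCN, 16.79 ± 0.13 in Pxr-/- Cont and 16.61 ± 0.15 in Pxr-/- PCN mice. The PCN differences were -0.10 in WT (-0.30 to 0.10) and -0.18 in Pxr-/- mice (-0.37 to 0.02), both within the fold limit. The dimmer probe gave other genotype values, and the difference between the probes was not tested. Between corn oil-treated mice it had a median of 8.66 in Pxr-/- and 8.27 in WT, a difference of 0.39 (0.10 to 0.69, adjusted p = 0.346), against 0.01 (-0.19 to 0.20) for the brighter probe. Between PCN-treated mice it gave 0.16 (-0.15 to 0.47) against -0.07 (-0.27 to 0.13). That dimmer probe matched GRCm38.p6 at chr11:69965270-69965329, which is 151 to 92 bases before the later of a pair of annotated Cldn7 starts, so a transcript from the later start would not carry it. The 2 probes varied together from mouse to mouse only weakly (r = 0.32, adjusted permutation p = 0.142; rho = 0.23, adjusted p = 0.289; r = 0.066 without the 2 most distant mice), so they are given as separate readings.

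Cldn2, the cation and water pore of leaky epithelia, had its lowest levels in Pxr-/- PCN mice, but no contrast passed. The WT Cont mice ran from 11.81 to 12.23 (median 11.96), and the 5 WT PCN mice were 11.65, 11.95, 12.11, 12.22 and 12.34. The Pxr-/- Cont mice ran from 11.61 to 12.18 (median 12.03), and the Pxr-/- PCN mice from 11.36 to 11.90 (median 11.64). All 6 Pxr-/- PCN mice lay below the mean of the Pxr-/- Cont mice, with overlapping ranges, and the other 3 groups lay close together. The difference was 0.05 in WT (95% interval -0.22 to 0.33) and -0.34 in Pxr-/- mice (SE 0.124, -0.60 to -0.09, adjusted p = 0.124), with an interaction of 0.40 (0.02 to 0.77, adjusted p = 1.0). Between PCN-treated mice the genotypes differed by -0.43 (-0.70 to -0.16, adjusted p = 0.236), and between controls by -0.03 (-0.29 to 0.23). The dimmer Cldn2 probe, whose sequence is given above, gave -0.36 in Pxr-/- mice (adjusted p = 0.125), 0.01 in WT mice and -0.37 between PCN-treated mice. The 2 probes varied together closely (r = 0.93, adjusted permutation p = 3.0e-05; rho = 0.90, adjusted p = 3.0e-05; r = 0.91 without the 2 most distant mice). In group means the order was WT PCN (12.05 ± 0.27), WT Cont (12.00 ± 0.19), Pxr-/- Cont (11.97 ± 0.22) and Pxr-/- PCN (11.63 ± 0.20), of which the first 3 lay within the spread between mice.

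Cldn15, the sodium pore of the small intestine, differed little between the groups, at 13.50 ± 0.16 in WT Cont, 13.48 ± 0.08 in WT PCN, 13.37 ± 0.28 in Pxr-/- Cont and 13.46 ± 0.13 in Pxr-/- PCN mice. The PCN differences were -0.02 in WT (95% interval -0.25 to 0.21) and 0.09 in Pxr-/- mice (-0.12 to 0.31). The widest spread was among the Pxr-/- Cont mice, which ran from 13.01 to 13.75.

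Occludin (Ocln), a membrane protein of the tight junction strands, ran from 9.39 to 9.95 (median 9.76) in WT Cont and from 9.40 to 9.71 (median 9.57) in WT PCN mice. It ran from 9.43 to 9.85 (median 9.54) in Pxr-/- Cont and from 9.15 to 9.75 (median 9.41) in Pxr-/- PCN mice. With PCN it was below the control mean in 4 of 5 WT and 5 of 6 Pxr-/- mice, by small amounts: -0.15 (95% interval -0.37 to 0.08) and -0.16 (-0.38 to 0.05). The average of both, -0.15 (adjusted p = 0.211), did not pass. F11r, which encodes junctional adhesion molecule A, gave 0.01 in WT (-0.20 to 0.21) and -0.11 in Pxr-/- mice (-0.30 to 0.09), with values from 13.79 to 14.38 over all mice. Tjp1, which encodes the scaffold ZO-1, was the steadiest member, with group means of 11.08 ± 0.08, 11.06 ± 0.09, 11.08 ± 0.14 and 11.17 ± 0.05 in WT Cont, WT PCN, Pxr-/- Cont and Pxr-/- PCN mice. Its PCN differences were -0.02 (-0.16 to 0.12) in WT and 0.10 (-0.04 to 0.23) in Pxr-/- mice, and the dimmer Tjp1 probe gave -0.10 and 0.09.

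Cdh1 encodes E-cadherin, the adhesion protein of the adherens junction. It ran from 13.43 to 13.54 (median 13.51) in WT Cont mice, and the 5 WT PCN mice were 13.12, 13.15, 13.28, 13.40 and 13.58. It ran from 13.35 to 13.75 (median 13.50) in Pxr-/- Cont and from 13.25 to 13.64 (median 13.42) in Pxr-/- PCN mice. Thus 4 of 5 WT PCN mice lay below the tight cluster of WT controls and 1 above it. The difference was -0.19 in WT (95% interval -0.37 to -0.01, adjusted p = 0.395), -0.09 in Pxr-/- mice (-0.26 to 0.08) and -0.14 on average (adjusted p = 0.158), none of which passed.

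**Figure D3:**
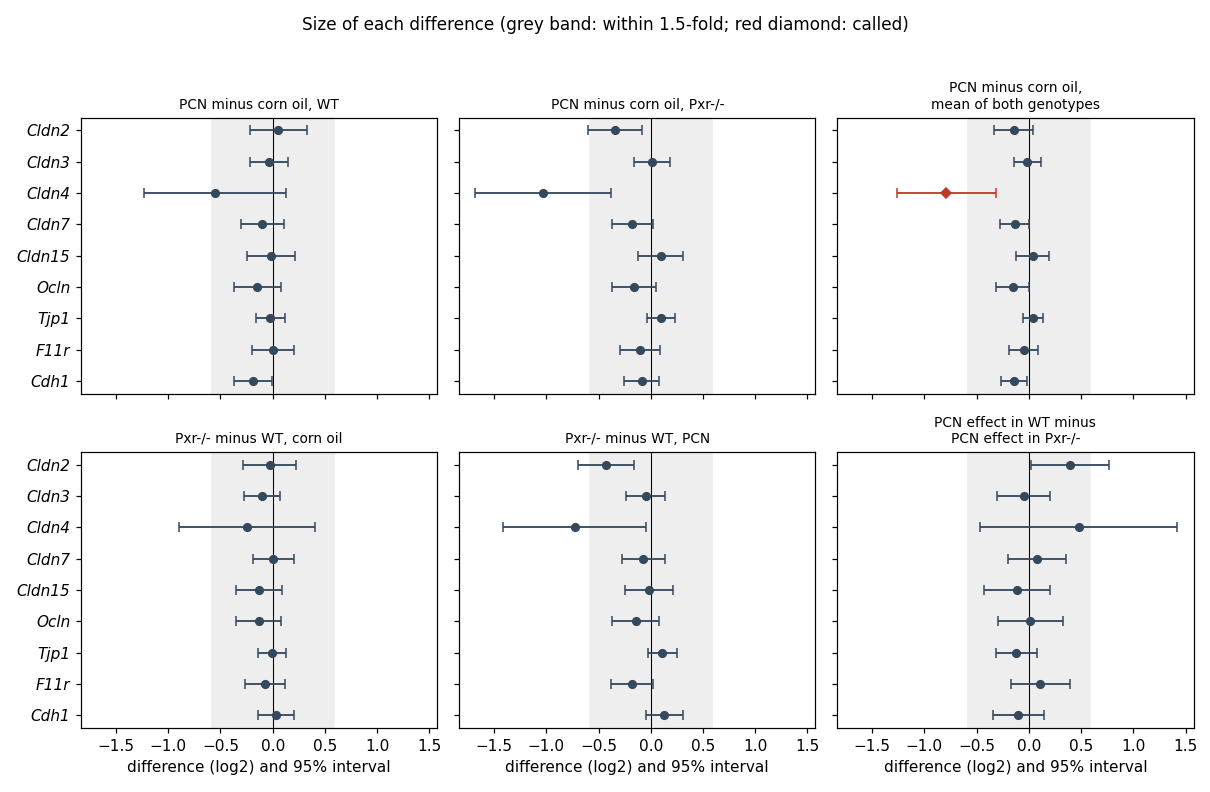
Difference (x axis, log2) with its 95% interval for the brightest probe of each of the 9 genes (y axis) in the 6 contrasts, with a grey band for changes within 1.5-fold. Most intervals stay in the band, and those of Cldn4 leave it in each contrast.

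Counted over the 9 genes, a call needed an adjusted p of at most 0.05 over all 37161 probes and a fold change above 1.5. No member was called for PCN in WT mice, where 1.05% of all genes were called, nor for PCN in Pxr-/- mice, where 1.49% were. None was called for the interaction (0.119% of all genes), for genotype without PCN (0.228%) or for genotype with PCN (0.541%). For the average PCN effect 1 of 9, Cldn4, was called down, where 0.273% of all genes were called down and 264 of 17574 were called in either direction. At an unadjusted limma p under 0.05, 1 member passed for PCN in WT (Cdh1; 14.9% of all genes), 2 for PCN in Pxr-/- mice (Cldn2 and Cldn4; 23.3%) and 1 for the interaction (Cldn2; 5.13%). There were 0 for genotype without PCN (10.6%), 2 for genotype with PCN (Cldn2 and Cldn4; 8.44%) and 2 for the average PCN effect (Cldn4 and Cdh1; 29.5%). Counts of 0 to 2 among 9 genes lie near these shares, so they are no result about the members. In no pairwise contrast were the groups of a member fully separate, where 3.65%, 3.69%, 1.49% and 1.43% of all genes were for PCN in WT, PCN in Pxr-/-, genotype without PCN and genotype with PCN.

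The intervals say how large a missed change could be. The whole 95% interval lay within 1.5-fold in either direction for 8 of 9 members for PCN in WT mice, all but Cldn4 (88.0% of all genes), and for 7 of 9 for PCN in Pxr-/- mice, all but Cldn2 and Cldn4 (87.0%). For the interaction it was 7 of 9 (80.0%), again without Cldn2 and Cldn4, for genotype without PCN 8 (91.2%), for genotype with PCN 7 (90.4%) and for the average PCN effect 8 (93.5%). Outside Cldn4, the bounds farthest from 0 for PCN were -0.37 and 0.33 in WT mice and -0.60 and 0.31 in Pxr-/- mice. The median difference of the 9 genes was -0.04 for PCN in WT mice against -0.02 over all genes, -0.11 against 0.00089 for PCN in Pxr-/- mice, and -0.14 against -0.0076 for the average. The difference was negative for 7 of 9 members in WT mice, where it was for 55.8% of all genes, and for 6 of 9 in Pxr-/- mice (49.8%), counts near those shares.

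Other genes of the junction were counted from lists of their families. Of 23 other claudins, 12 were tested, and the median PCN difference of these 12 was -0.07 in WT and 0.0043 in Pxr-/- mice. Cldn8, a barrier claudin best known from the colon and kidney tubule, was the 1 called, for the average PCN effect: it fell by 0.77 on the log2 scale (SE 0.215, 95% interval -1.21 to -0.32, adjusted p = 0.0283). It ran from 8.37 to 9.22 in WT Cont, 7.02 to 8.90 in WT PCN, 7.60 to 8.52 in Pxr-/- Cont and 6.71 to 8.05 in Pxr-/- PCN mice, with overlap in both genotypes. The differences were -0.71 in WT (adjusted p = 0.360) and -0.83 in Pxr-/- mice (adjusted p = 0.119). In wash batch 1 alone the average was -1.01 (adjusted p = 0.139) and in wash batch 2 alone -0.53 (adjusted p = 0.392), and it missed the threshold without WT PCN replicate 2 (adjusted p = 0.0536) or 3 (adjusted p = 0.0560). Cldn1 and Cldn23 passed the adjusted p for the average effect but not the fold limit, at -0.38 (adjusted p = 0.0223) and -0.36 (adjusted p = 0.0169).

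All 13 other tight junction membrane proteins were tested, and 1 was called. Ildr2, a member of the angulin family of tricellular junctions, rose with PCN in Pxr-/- mice by 0.72 (SE 0.162, 95% interval 0.38 to 1.05, adjusted p = 0.0176). Its value ran from 6.77 to 7.53 in Pxr-/- Cont and from 7.44 to 8.30 in Pxr-/- PCN mice, and it was 0.36 higher in WT PCN than in WT Cont mice (adjusted p = 0.418). The interaction did not pass (-0.36, -0.85 to 0.13), so the responses of the genotypes were not shown to differ. The difference was 0.60 in wash batch 1 alone (adjusted p = 0.512) and 0.83 in wash batch 2 alone (adjusted p = 0.115). Leaving out Pxr-/- PCN replicate 5 ended the Ildr2 call (adjusted p = 0.0518), as did slide as a fixed block (0.58, under the fold limit). Esam, an adhesion molecule of endothelium as well as of junctions, differed by 0.44 in Pxr-/- mice (adjusted p = 0.0102), below the fold limit. Its mean was also higher with PCN in WT mice, at 8.92 in WT Cont and 9.25 in WT PCN mice. Of the 9 endothelial markers, a list that also holds Esam, 9 were higher with PCN in WT and 8 in Pxr-/- mice. Over all genes, 55.8% were lower in WT and 49.8% in Pxr-/- mice.

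None of 22 plaque and polarity proteins or 13 adherens junction proteins was called by limma in any of the 6 contrasts. At an unadjusted p under 0.05 there were 1 and 3 of them for PCN in WT mice and 2 and 2 for PCN in Pxr-/- mice. Nectin1, a cell adhesion molecule of the adherens junction, differed by -0.31 in WT mice (adjusted p = 0.0436), and Vcl, which encodes vinculin, by 0.24 in Pxr-/- mice (adjusted p = 0.0468), both within the fold limit. In the other genotype the means ran the same way. Nectin1 had 10.47 in Pxr-/- Cont and 10.21 in Pxr-/- PCN mice, and Vcl 11.98 in WT Cont and 12.07 in WT PCN mice. Pard3, a polarity scaffold, was lower in Pxr-/- than in WT mice given PCN by a log2 difference of -0.37 (adjusted p = 0.0151), also within it. Among 9 desmosome proteins Ppl, which encodes periplakin, was the 1 called: it rose with PCN in Pxr-/- mice by 0.67 (SE 0.136, 95% interval 0.39 to 0.96, adjusted p = 0.00919). The 6 Pxr-/- PCN mice (8.02 to 8.61) lay above the 6 Pxr-/- Cont mice (7.38 to 7.98) without overlap, where 3.69% of all genes did not overlap. Esam and Nectin1 did not overlap between Pxr-/- PCN and Pxr-/- Cont mice either, so this was not particular to Ppl. For Ppl, wash batch 1 alone gave 0.52 (adjusted p = 0.360) and wash batch 2 alone 0.83 (adjusted p = 0.102), with 3 mice per group in each. The mean of all Ppl probes tested gave 0.44, under the fold limit. In WT mice the difference was 0.35 (adjusted p = 0.306), and the interaction of -0.32 (-0.73 to 0.09) did not pass. Cldn8, Ildr2 and Ppl were thus the 3 called in any contrast among the 69 genes tested from these 5 lists, where 2.66% of all genes were called in at least 1 of the 6 contrasts.

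**Figure D4:**
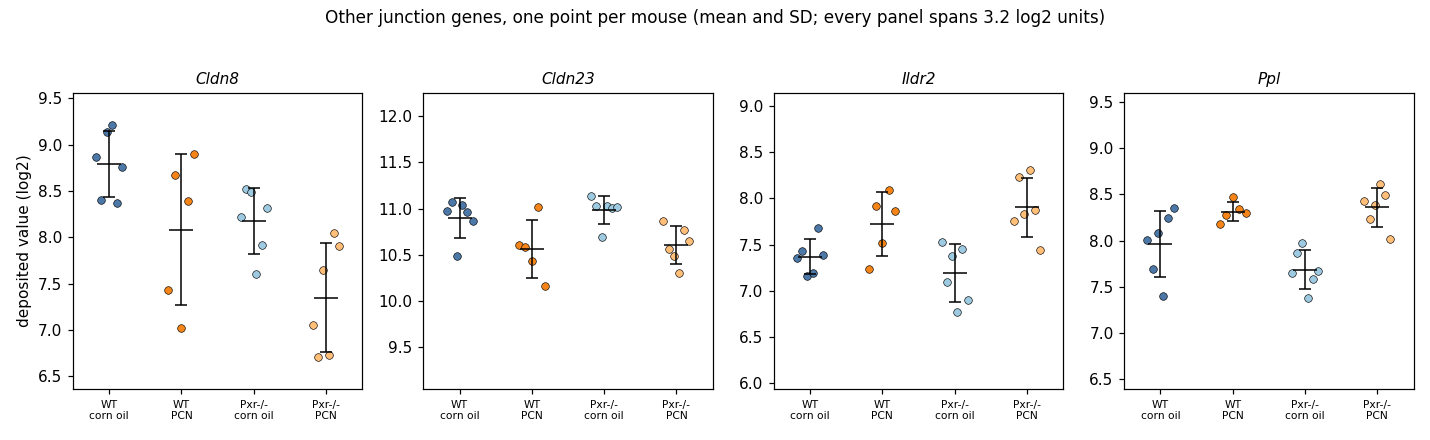
Deposited log2 value (y axis) of Cldn8, Cldn23, Ildr2 and Ppl in the 4 groups (x axis), 1 point per mouse with the group mean and SD. Cldn8 lies between 6.71 and 8.05 in Pxr-/- PCN mice, and Ppl separates Pxr-/- PCN from Pxr-/- Cont mice, as do 3.69% of all genes.

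Within groups, some pairs of members varied together from mouse to mouse. The share among pairs of other genes was not computed, so the counts below describe these 9 genes only. After group and wash batch were removed, 26 of the 36 pairs of genes had a positive correlation over the 23 mice, with a median r of 0.38, and 14 pairs passed an adjusted permutation p of 0.05 by Pearson's r, 9 of them by Spearman's rho as well. The closest pair was Cldn3 and Ocln (r = 0.77, rho = 0.80, adjusted permutation p = 0.00156 and 0.00108; r = 0.74 without the 2 most distant mice). Tjp1 with Cdh1 followed (r = 0.72, rho = 0.70, adjusted permutation p = 0.00156 and 0.00336; r = 0.61 without 2 mice). Cldn4 varied with F11r (r = 0.70, rho = 0.71, adjusted permutation p = 0.00261 and 0.00336; r = 0.68 without 2 mice) and with Ocln (r = 0.66, rho = 0.61, adjusted permutation p = 0.00414 and 0.0118; r = 0.56 without 2 mice). Cldn15 stood apart, with no pair that passed. Its lowest value, with Tjp1 (r = -0.47, adjusted permutation p = 0.0567), came to -0.15 without 2 mice. Cldn2 passed only with Cldn4 (r = 0.48, adjusted permutation p = 0.0496), and not by Spearman's rho (adjusted permutation p = 0.0635). Arrays share tissue makeup and RNA quality, so the same residuals were set against the summed level of 4 marker lists, 36 relations in all. The 1 that passed was Cldn7 with the epithelial genes (r = 0.71, rho = 0.68, adjusted permutation p = 0.00432 and 0.0162; r = 0.58 without 2 mice). For Cldn4 and the epithelial genes r was 0.47 and rho 0.23 (adjusted permutation p = 0.176 and 0.630; r = 0.27 without 2 mice).

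**Figure D5:**
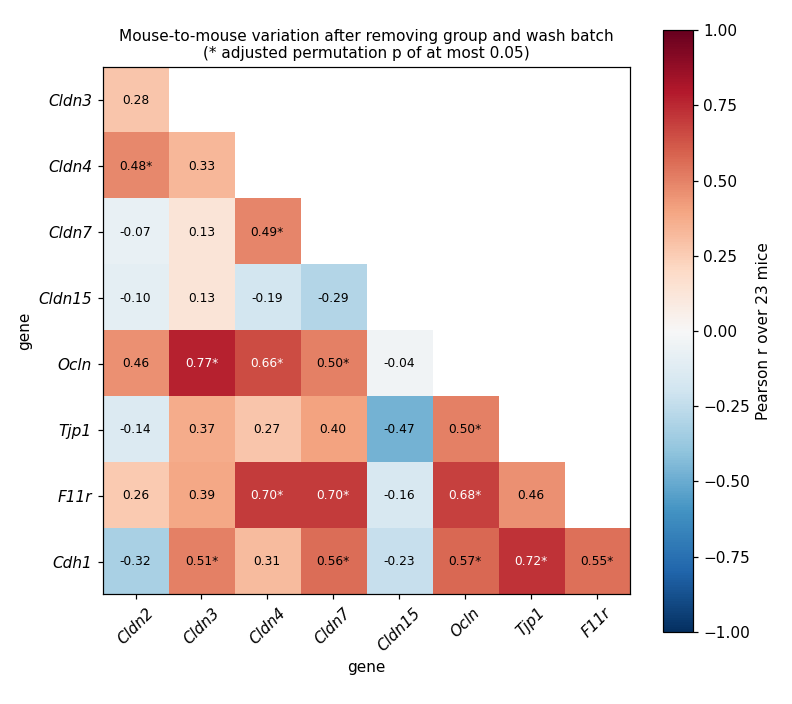
Pearson's r over 23 mice between the residuals of each pair of the 9 genes (both axes list genes; colour and printed value give r), with an asterisk where the adjusted permutation p was at most 0.05. The highest value is 0.77 for Cldn3 with Ocln, and Cldn15 has no asterisk.

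The size of that variation differed between members. The residual SD of Cldn4 was 0.597, at percentile 98.7 of 15861 genes, whereas that of Tjp1 was 0.0973, at percentile 8.80, and those of the other 7 genes lay between 0.139 and 0.226. The gene with the most similar pattern over all 23 arrays, groups included and among 15852 genes, was Hbegf for Cldn4 (r = 0.83, rho = 0.82), Arntl for Cldn2 (r = 0.82, rho = 0.85) and Prkcd for Cldn3 (r = 0.80, rho = 0.81). It was Ctdnep1 for Cldn7 (r = 0.86, rho = 0.76), Lrrc56 for Cldn15 (r = 0.84, rho = 0.80) and Chmp2b for Ocln (r = 0.85, rho = 0.77). For Tjp1 it was Parp4 (r = 0.78, rho = 0.79), for F11r Espnl (r = 0.81, rho = 0.78) and for Cdh1 Fat1 (r = 0.82, rho = 0.82). These are the highest of many values and are given as a description.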

How the data were processed

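RNA from the ileum of 23 mice (150 ng each) was labelled with Cy3 and hybridized to 1-colour Agilent arrays, which the authors read with Agilent Feature Extraction 10.10.1.1. The deposited table holds log2 values, which the authors made from the median signal by filtering and log2 transformation, with correction for wash batch and CrossNorm normalization, as the methods state for arrays of these mice (they describe the liver). Deposited scanner intensity per spot served for detection calls and alternatives. The 56605 probes were named from the array files, of which 43738 matched a current symbol. limma 3.58.1 in R 4.3.3 was fitted to all 37161 probes of the table with 4 groups and wash batch, with empirical Bayes moderation and Benjamini-Hochberg adjustment over all probes per contrast. The 6 contrasts used one call rule, a fold above 1.5 with an adjusted p no higher than 0.05. Array number and signal over background limit the precision. Correlations used residuals and 100000 permutations. The fit was tested on simulated data. The members and lists were chosen with earlier results of these data known. Named were all members, the genes of each junction list called in any contrast (at most 5 per list and contrast), otherwise the 2 genes with the largest absolute limma statistic for PCN in each genotype, of which those past the adjusted p are given, and the gene most like each member. One further junction list is not reported here. Alternatives were the scanner signal under other normalizations, background corrections and filters, no wash batch term, each wash batch alone, slide or replicate number as a block, and leaving out each mouse.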

Additional observations from a re-analysis of the deposited data

How the results depend on the processing

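Under 39 alternatives (38 for the interaction and the average PCN effect), the count of members called stayed at 0 for PCN in WT mice, for the interaction and for both genotype contrasts. For PCN in Pxr-/- mice it was 1 (Cldn4) with slide as a fixed block and 1 with slide as a random block (adjusted p = 0.0496), against 0 as reported, and 0 to 1 without each mouse in turn. For the average PCN effect it was 0 in wash batch 1 alone, 0 in wash batch 2 alone and 0 with a replicate block (Cldn4 -0.78, adjusted p = 0.0672), against 1 as reported, and 0 to 1 without each mouse in turn; the adjusted p of Cldn4 ran from 0.00315 to 0.275, and the cause of the lost calls was not tested, beyond the fewer mice in each batch. All 4 scanner-based normalizations called it. The number of correlated pairs was 9 with quantile-normalized scanner signal, against 14 as reported, and all 9 were among the 14. Outside the members, the call of Cldn8 also missed the threshold with the replicate block (adjusted p = 0.0538). Ildr2 and Ppl missed a call in each wash batch alone, and slide as a fixed block left Ildr2 (0.58) and the mean of all probes left Ppl (0.44) under the fold limit. Same-numbered mice of different groups had a median r of -0.0089 over 33 pairs (-0.20 to 0.46), against -0.00050 for other pairs. Of 23 arrays, 9 were closest to their own number. The count to be had without pairing was not computed, so whether the numbers pair the mice was not settled. The reported fit took the mice as unpaired. No called difference changed sign. Each group held 5 or 6 mice, and single probes read 6 of the 9 genes.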
